A study of Homo sapiens with 6 samples.

Results

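The peaks described here lay inside very long protein-coding genes, those whose RefSeq span on GRCh38 is at least 200 kb. A peak was counted when it was at most 1000 bp wide and its summit fell in exactly 1 annotated gene span, more than 500 bp from the 5′ end and more than 2000 bp from the 3′ end of that gene. These were 3028 peaks in replicate 1, 23650 in replicate 2 and 718 in replicate 3. They made up 10.1%, 14.7% and 4.54% of the 30109, 160931 and 15813 listed peaks of that width, and 27396 of the 256139 listed peaks in all.

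In RIP-seq a protein is immunoprecipitated and the RNA that comes down with it is sequenced. Here the protein was taken to be SmD2, encoded by the overexpressed gene SNRPD2, though the labels do not name it as the target. The cells were HEK293T, a human embryonic kidney cell line. The labels give 3 RIP samples with SNRPD2 overexpression (genotype SNRPD2OE) and 3 control RIP samples in the same line. Values below come from the lists of the overexpression samples alone. Lists of the controls were not used here, and no comparison with a control immunoprecipitation was made. The deposited folds, p-values and q-values were set against the caller's background, and no source used here says which library that was. The labels name neither an antibody or tag nor separate cultures for the replicates, and the spread between replicates may be technical.

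SmD2 is 1 of the Sm proteins that form a ring on the U1, U2, U4 and U5 small nuclear RNAs, the RNA components of the spliceosome. Very long genes owe most of their length to introns, so that nearly all of their primary transcript is removed by splicing. Many of them encode neuronal adhesion proteins, ion channels and synaptic scaffolds, while others encode giant housekeeping proteins such as ubiquitin ligases and vesicle tethers. The annotation used held whole gene spans and no exons, so whether a given summit was exonic or intronic was not determined.

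The lists differed in reads per peak and in peak width, and this bears on each value below. Whether depth, scaling or calling made them differ was not tested. Replicate 2 held mostly single-read peaks, with 1 read at the summit of 81.2% of its peaks in very long genes, against none in replicate 1 and 13.2% in replicate 3. Replicate 3 had 9617 further peaks in the same interiors that were wider than 1000 bp, 93.1% of its peaks there, whereas replicates 1 and 2 had none. Median reads at the summit were 3, 1 and 6, median widths 69, 40 and 72 bp, and median deposited folds over the caller's background 2.73, 1.94 and 2.34 in replicates 1, 2 and 3. Only 113, 601 and 18 of the peaks (3.73%, 2.54% and 2.51%) had a deposited q-value under 0.05. The share was also low in the interiors of shorter protein-coding genes, at 4.70%, 4.65% and 3.13%. By the reads at the summit, most peaks in very long genes rested on few reads.

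Sequence could be shown where a peak met one of the 250-base windows that end at a RefSeq start site inside a very long gene, either an internal start of the same gene or the start of a neighbour that begins there. There were 2311 such windows in 936 genes, of which 111 held a summit, 6 of them in more than 1 list and none in all 3. The 6 stretches below, chosen after their values were seen, are the best covered: those of SRPK2 and MKLN1 had at least 5 reads in replicates 1 and 2, and the other 4 had at least 7 reads in 1 list. They are RefSeq sequence of GRCh38, written 5′ to 3′ on the strand of the very long gene, and capitals mark the letters TNTAA or TNTAG, the DNA spelling of UNUAA and UNUAG, which PUS7 is known to pseudouridylate.
SRPK2, chr7:105203707-105203775, minus strand: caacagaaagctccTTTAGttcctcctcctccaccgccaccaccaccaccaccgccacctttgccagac
MKLN1, chr7:131327904-131327955, plus strand: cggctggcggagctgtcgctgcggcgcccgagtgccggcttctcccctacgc
FAF1, chr1:50441332-50441487, minus strand: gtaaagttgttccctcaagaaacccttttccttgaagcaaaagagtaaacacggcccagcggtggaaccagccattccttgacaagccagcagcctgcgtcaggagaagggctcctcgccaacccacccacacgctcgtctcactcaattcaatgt
PRKD1, chr14:29597541-29597579, minus strand: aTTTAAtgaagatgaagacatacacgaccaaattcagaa
PDE4DIP, chr1:148952125-148952175, plus strand: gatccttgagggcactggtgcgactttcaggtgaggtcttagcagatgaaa
DTNA, chr18:34818187-34818280, plus strand: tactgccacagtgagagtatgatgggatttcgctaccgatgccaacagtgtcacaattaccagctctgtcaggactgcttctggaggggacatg

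SRPK2, a kinase of the SR splicing factors, had 11 reads at this summit in replicate 1 and 7 in replicate 2. MKLN1 encodes muskelin, a subunit of a ubiquitin ligase complex, and its peak had 5 reads in both of these replicates, just before the start of the antisense gene MKLN1-AS in sequence that was 76.9% G and C. The FAF1 peak had 23 reads in replicate 3 alone, before the start of FAF1-AS1. In PRKD1, a protein kinase gene, 7 reads lay at the summit in replicate 1 alone. PDE4DIP, which encodes a centrosome and Golgi scaffold and has near-identical copies in the genome, had 7 reads in replicate 2 alone. DTNA, a gene for a component of the dystrophin complex, had 7 reads in replicate 3 alone. The lists carry no strand, so reads of a host gene and of an antisense neighbour cannot be told apart at these sites.

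Peaks were denser in these start windows than in very long genes at large. The density was 0.0211, 0.174 and 0.00879 peaks per kb, which was 3.70, 3.91 and 6.51 times the density over all eligible sequence, from 12, 99 and 5 peaks. TNTAA or TNTAG, searched on both strands, occurred in 85.2% of all windows and in 80 of the 111 with a summit (72.1%). The 5′ splice site letters GGTAAG occurred in 6.66% of all windows and 9 of the 111 (8.11%), and the Sm site letters ATTTTTG in 6.23% and 6 of the 111 (5.41%). Matches of the 3 motifs may share letters, and a match describes letters in the window, not a modified or bound site.

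The density of peaks fell with gene length in each replicate. RefSeq held 1399 protein-coding genes of at least 200 kb, with a median span of 319 kb and 69 genes of 1 Mb or more, and 1387 of them had sequence in which a summit could be counted, called eligible sequence. This came to 531 Mb, or 90.1% of their spans. Over it, the density was 0.00570, 0.0445 and 0.00135 peaks per kb in replicates 1, 2 and 3. The interiors of shorter protein-coding genes, cut at the same distances from their ends, held 0.0298, 0.115 and 0.0163 peaks per kb, so the very long genes were at 0.191, 0.386 and 0.0828 times that density. The ratio was below 1 in 3 of 3 replicates, with a geometric mean of 0.183 and a log2 ratio of -2.45 ± 1.11 (SD, n = 3), and an exact sign-flip permutation test over replicates, two-sided, gave p = 0.25, the smallest that 3 replicates allow. In replicate 3 the ratio was 0.451 when its wide peaks were counted too.

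The decline ran through every length class and did not begin at 200 kb. Replicate 1 went from 0.0575 peaks per kb in genes under 20 kb to 0.0191 at 100 to 200 kb, 0.0122 at 200 to 300 kb, 0.00282 at 500 kb to 1 Mb and 0.000691 in genes of 1 Mb or more. Replicate 2 went from 0.160 to 0.0909, 0.0706, 0.0320 and 0.0193 over the same classes. Replicate 3 went from 0.0331 to 0.00877, 0.00307, 0.000431 and 0.000136. The decline was shallowest in replicate 2, where the share of single-read peaks rose from 48.2% in the shortest class to 90.7% in the longest. On either side of the rule's threshold the densities were close: the 96 genes of 190 to 200 kb had 0.0134, 0.0740 and 0.00391 peaks per kb, and the 95 genes of 200 to 210 kb had 0.0140, 0.0713 and 0.00260.

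**Figure D1:**
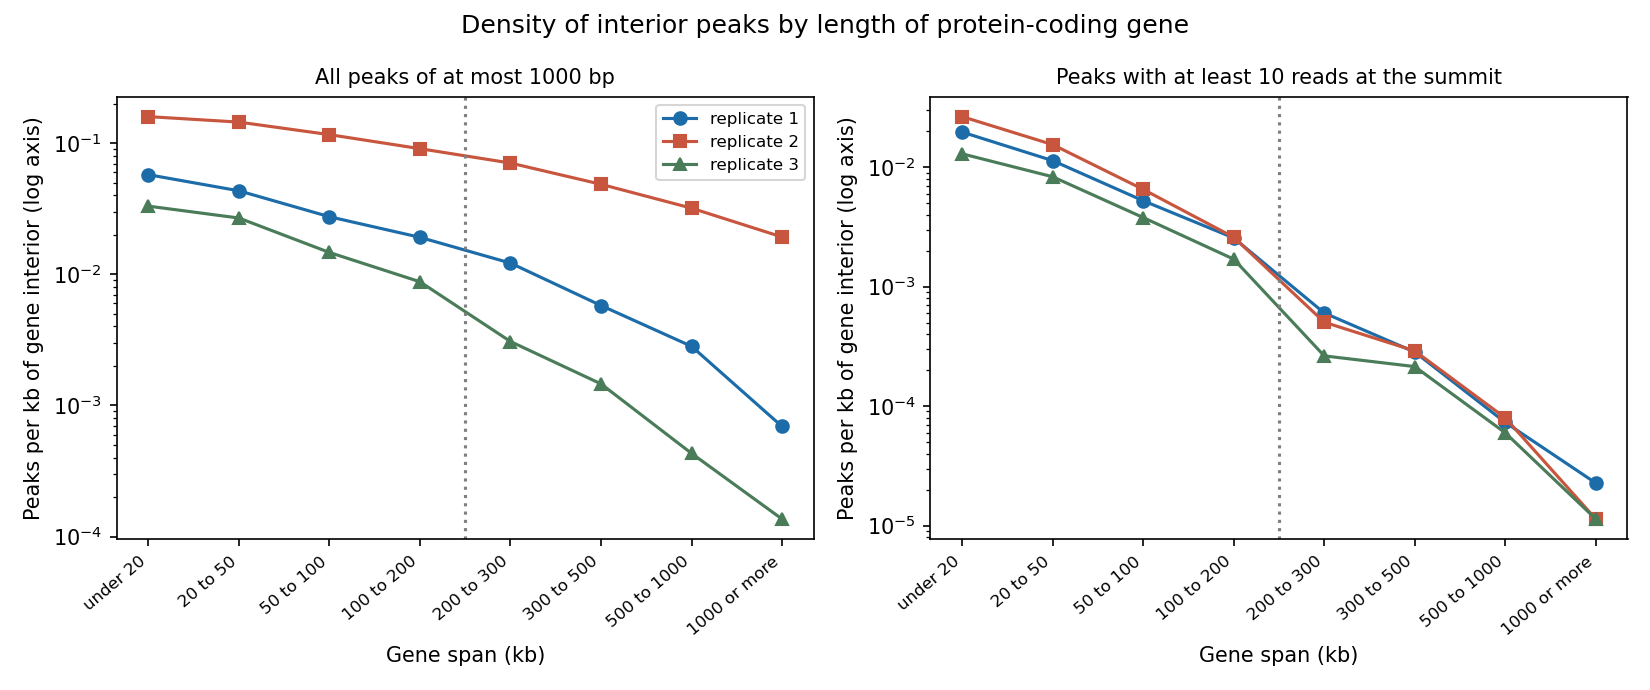
Peaks per kb of gene interior (log axis) against the span of protein-coding genes in kb, for each replicate, with all peaks of at most 1000 bp on the left and peaks of at least 10 reads at the summit on the right; the dotted line marks 200 kb. All 3 lines fall from the shortest to the longest class, and with at least 10 reads the longest class holds 2, 1 and 1 peaks in replicates 1, 2 and 3.

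Well-covered peaks were scarcer still. Summits with at least 10 reads numbered 138, 126 and 79 in very long genes, of 3028, 23650 and 718 peaks there, against 3745, 4775 and 2631 of the 17034, 65948 and 9321 interior peaks of shorter genes. Counted per kb, such peaks were at 0.0396, 0.0284 and 0.0323 times the density of shorter genes, a similar value in the 3 lists. The highest number of reads at a summit was 24, 32 and 34, against 65, 79 and 72 in shorter genes. The share of peaks with at least 10 reads was lower in very long genes in 3 of 3 replicates (exact sign-flip permutation test, two-sided, p = 0.25, the smallest possible).

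Set against sequence outside annotated genes, very long genes as a whole were the denser, but those of 1 Mb or more were not. The intergenic length was all sequence between gene spans, with no margin at gene ends. Stretches where no read can map were not taken out of it, so its density may be understated. Intergenic sequence held 0.000851, 0.0213 and 0.000253 peaks per kb, so the very long genes had 6.70, 2.09 and 5.35 times as many (3 of 3 replicates; exact sign-flip permutation test, two-sided, p = 0.25, the smallest possible). In genes of 1 Mb or more the density was below the intergenic one in each list, at 0.000691, 0.0193 and 0.000136. Single genes varied widely. The median gene had 0.00175, 0.0456 and 0 peaks per kb, and 652, 403 and 1096 of the 1387 genes (47.0%, 29.1% and 79.0%) lay below the intergenic density of the same list. The 139 genes with the most peaks in a list, whatever their length, held 50.8%, 26.9% and 77.9% of its peaks.

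At least 1 peak was found in 744 of the 1387 genes (53.6%) in replicate 1, 1367 (98.6%) in replicate 2 and 291 (21.0%) in replicate 3. All 3 lists had a peak in 262 genes (18.9%), while 510 genes had one in 2 lists, 596 in 1 list and 19 in none. Without replicate 3, 743 genes had a peak in both remaining lists. Among the 19 were MGMT, which encodes a DNA alkylation repair protein, and KCNH8, a potassium channel gene, each with 287 kb of eligible sequence, and the adhesion gene CHL1 with 187 kb; these were chosen after their values were seen. Across the 1365 genes with at least 100 kb of eligible sequence, densities were positively correlated between lists. Spearman rho was 0.726 between replicates 1 and 2, 0.518 between 1 and 3 and 0.469 between 2 and 3. Pearson r was 0.629, 0.549 and 0.356 for the same pairs. Genes without a peak tie at 0, and in replicate 3 these were most genes. Its rank correlations therefore largely set genes with a peak against genes without. These correlations are across genes measured in the same 3 libraries, and carry no test. Span and density had a rho of -0.248, -0.389 and -0.182, with the same ties at 0.

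The 12 genes with the highest mean density rank over the 3 lists had spans from 203 kb (RTTN) to 367 kb (TRIO). MTHFD1L, which encodes a mitochondrial enzyme of one-carbon metabolism (chr6:150865702-151101887, plus strand), ranked first with 15, 37 and 13 peaks, or 0.0680, 0.168 and 0.0589 per kb. Its best-covered summits had 21, 16 and 12 reads. EHMT1, a histone H3 lysine 9 methyltransferase gene, had 14, 34 and 4 peaks and PCNX1, a gene for a membrane protein of the pecanex family, 9, 30 and 4. CHD6, a chromatin remodeller gene, had 13, 40 and 3. These first 4 genes were each at 0.0505 peaks per kb or more in replicate 1 and at 0.168 or more in replicate 2, while in replicate 3 MTHFD1L stood well above the other 3.

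HERC2, a giant ubiquitin ligase gene, had the highest density of all genes in replicate 1, with 34, 34 and 3 peaks (0.163, 0.163 and 0.0144 per kb). Partial copies of HERC2 elsewhere in the genome make its read assignment uncertain. MYCBP2, another giant ubiquitin ligase gene, had 22, 31 and 19 peaks and 0.0872, 0.123 and 0.0753 per kb. The remaining genes of this group were DIP2B (19, 31 and 6 peaks), WDFY3, which encodes an autophagy adaptor (26, 38 and 5), TRIO, a guanine nucleotide exchange factor gene (16, 58 and 6), GRB10, a receptor adaptor gene (10, 28 and 4), RTTN, a centriole gene (19, 32 and 2), and DCAF6 (5, 20 and 5). BIRC6, which encodes an inhibitor of apoptosis with ubiquitin-conjugating activity, had the highest density of replicate 3, with 23, 19 and 22 peaks and 0.0951, 0.0785 and 0.0909 per kb. BIRC6 was chosen after its values were seen.

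The 10 longest genes were below the density of all very long genes in every list, with LRP1B the nearest to it in replicates 1 and 2. RBFOX1, a splicing regulator gene of 2474 kb (chr16:5239721-7713340, plus strand), had 0, 39 and 0 peaks, and none of the 39 had more than 2 reads. CNTNAP2 (neuronal adhesion) had 0, 28 and 0, PTPRD (receptor phosphatase) 0, 14 and 0, DMD, the dystrophin gene, 0, 27 and 0, CSMD1 0, 20 and 0 and EYS 0, 10 and 0. DLG2 (synaptic scaffold) had 2, 32 and 0 peaks, MACROD2 1, 28 and 0, CTNNA3 2, 19 and 0 and LRP1B, a lipoprotein receptor family gene, 8, 70 and 0. Of the 70 peaks of LRP1B in replicate 2, only 5 had at least 2 reads. Replicate 3 listed no peak of at most 1000 bp in any of the 10, where 21.0% of all very long genes had one, and replicate 1 listed none in 6 of them, where 53.6% of all had one. By mean density rank LRP1B was in the middle of all genes, at percentile 49.2. In replicate 2 the densities ran from 0.00546 per kb in EYS to 0.0407 in LRP1B, with LRP1B alone above the intergenic value of 0.0213.

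**Figure D2:**
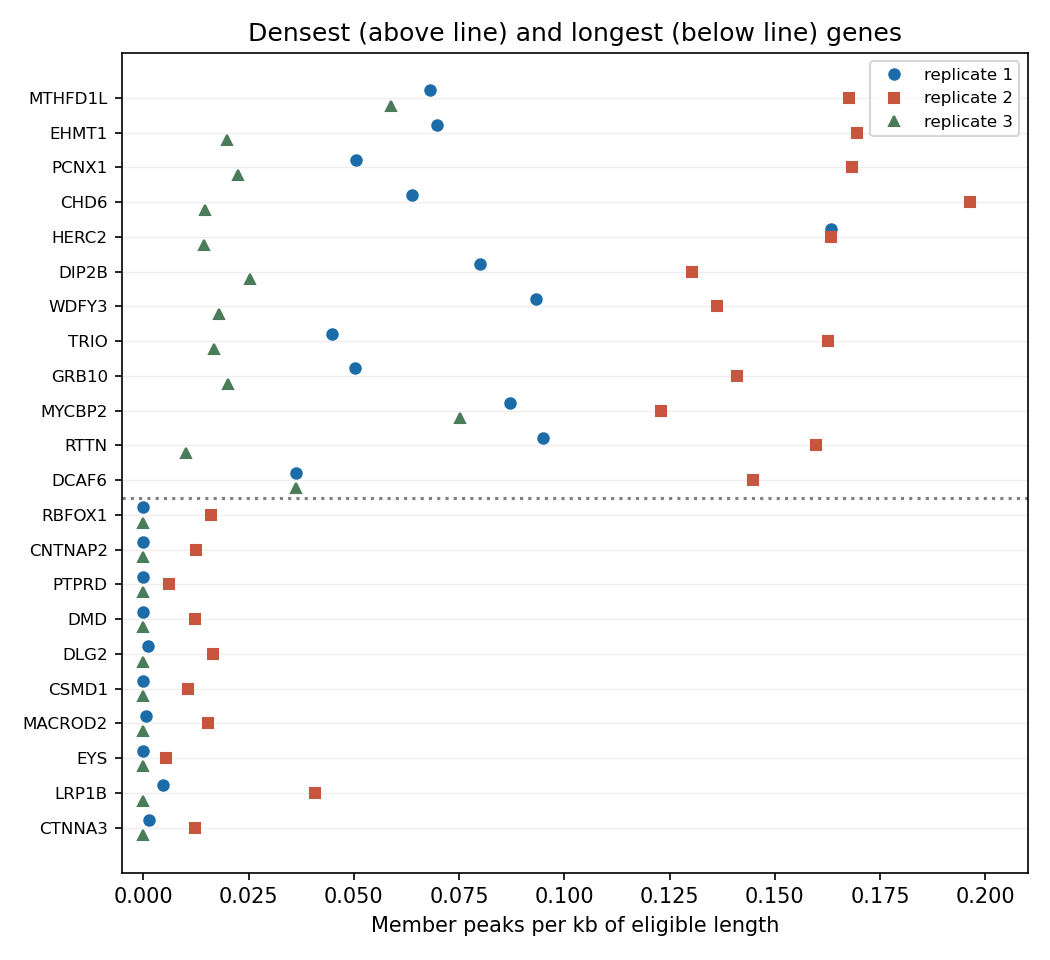
Peaks per kb of eligible length for the 12 genes with the highest mean density rank among those with a peak in each list (above the dotted line) and the 10 longest genes (below it), with 1 symbol per replicate. In replicate 1 the 12 dense genes run from 0.0362 (DCAF6) to 0.163 (HERC2), and the 10 longest from 0 to 0.00465 (LRP1B).

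Very long genes were also grouped into 11 lists by function or locus, which share some genes. The groups differ in gene length, with which density fell, and no adjustment for length was made. Length and function therefore cannot be told apart in these values. For each group the 2 genes with the highest mean density rank were named, here or above, so they are not typical of it. By pooled density the ubiquitin system was the densest in replicates 1 and 3. Of its 23 very long genes, 9 had a peak in all 3 lists (39.1%, against 18.9% of all very long genes), and 16, 23 and 9 had one in replicates 1, 2 and 3. Its pooled density was 3.59, 1.43 and 5.68 times that of all very long genes. HERC1, paralogous to HERC2, had 34, 36 and 2 peaks, UBR3, an N-degron ligase family gene, 10, 23 and 4, and USP34, a deubiquitinase gene, 10, 20 and 5. These 3 genes were chosen after their values were seen. HERC1 and HERC2 held 34 each of its 165 peaks in replicate 1, and MYCBP2 and BIRC6 held 19 and 22 of its 62 in replicate 3. Its median gene had 0.00570, 0.0673 and 0 peaks per kb, against 0.00175, 0.0456 and 0 over all very long genes. By the median gene the cytoskeleton, chromatin and replication groups were denser in replicate 1, at 0.0103, 0.00821 and 0.00587.

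Genes of the cytoskeleton and membrane traffic had peaks in all lists in 20 of 57 (35.1%), with a pooled density of 2.26, 1.295 and 1.53 times that of all very long genes. VPS13D, a lipid transfer protein gene, had 33, 48 and 2 peaks and CLASP2, a microtubule plus-end gene, 13, 25 and 6. Chromatin and transcription regulators had peaks in all lists in 13 of 53 (24.5%), at 1.72, 1.51 and 1.61 times. In genes of DNA replication, repair and the cell cycle it was 8 of 19 (42.1%), at 1.14, 1.80 and 2.04 times. MAD1L1, a spindle checkpoint gene, had 7, 46 and 7 peaks and SPIDR, a recombination scaffold gene, 10, 49 and 1.

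The next groups had pooled densities on both sides of that of all very long genes. Metabolic and mitochondrial genes had peaks in all lists in 9 of 34 (26.5%), at 1.12, 0.965 and 1.505 times; ACACA, the acetyl-CoA carboxylase gene of fatty acid synthesis, had 17, 36 and 5. Kinase, phosphodiesterase and GTPase signalling genes came to 13 of 55 (23.6%), at 1.05, 1.07 and 0.810 times, with 8, 39 and 4 peaks in PTK2, the focal adhesion kinase gene. Genes of RNA-binding proteins and splicing regulators came to 6 of 20, at 0.725, 0.938 and 1.53 times. The median gene of these 3 groups was above that of all very long genes in replicates 1 and 2: metabolic genes had 0.00411 and 0.0574 peaks per kb, signalling genes 0.00310 and 0.0590 and RNA-binding genes 0.00324 and 0.0724, against 0.00175 and 0.0456. RBFOX1 alone made up 2436 kb of the 9.68 Mb of the RNA-binding group. SND1, a multifunctional RNA-binding protein gene, held 8, 41 and 11 of their peaks with up to 23, 18 and 17 reads, and SRPK2 had 4, 27 and 1. CELF2 (0, 12 and 0) and RBFOX3 (1, 11 and 0), also splicing regulators and chosen after their values were seen, had few.

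The other 4 groups were below the general density in every list. Neuronal and other adhesion genes had peaks in all lists in 5 of 49 (10.2%), at 0.0950, 0.370 and 0.217 times the density of all very long genes. Their median gene had 0, 0.0130 and 0 peaks per kb. These 49 genes held 44.3 Mb of eligible sequence, against 531 Mb in all 1387, so they were long on average even among very long genes. TENM3, a teneurin gene, had 4, 49 and 3 peaks and CADM1 2, 26 and 0. Ion channel and neurotransmitter receptor genes came to 2 of 42 (4.76%), at 0.166, 0.562 and 0.105 times, with 4, 35 and 0 peaks in CACNB4, a calcium channel subunit gene, and 4, 31 and 0 in ITPR1, the gene of a calcium release channel. Extracellular matrix genes came to 1 of 37, at 0.388, 0.829 and 0.182 times, led by the fibrillin genes FBN2 (6, 22 and 2) and FBN1 (3, 34 and 0). Genes at common fragile sites, which are among the longest, came to 1 of 30 (3.33%), at 0.255, 0.5996 and 0.0211 times. That 1 gene was WWOX, an oxidoreductase gene, with 4, 72 and 1 peaks, while NBEA, a neuronal trafficking gene, had 15, 41 and 0. The lists hold no measure of the RNA abundance of these genes.

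**Figure D3:**
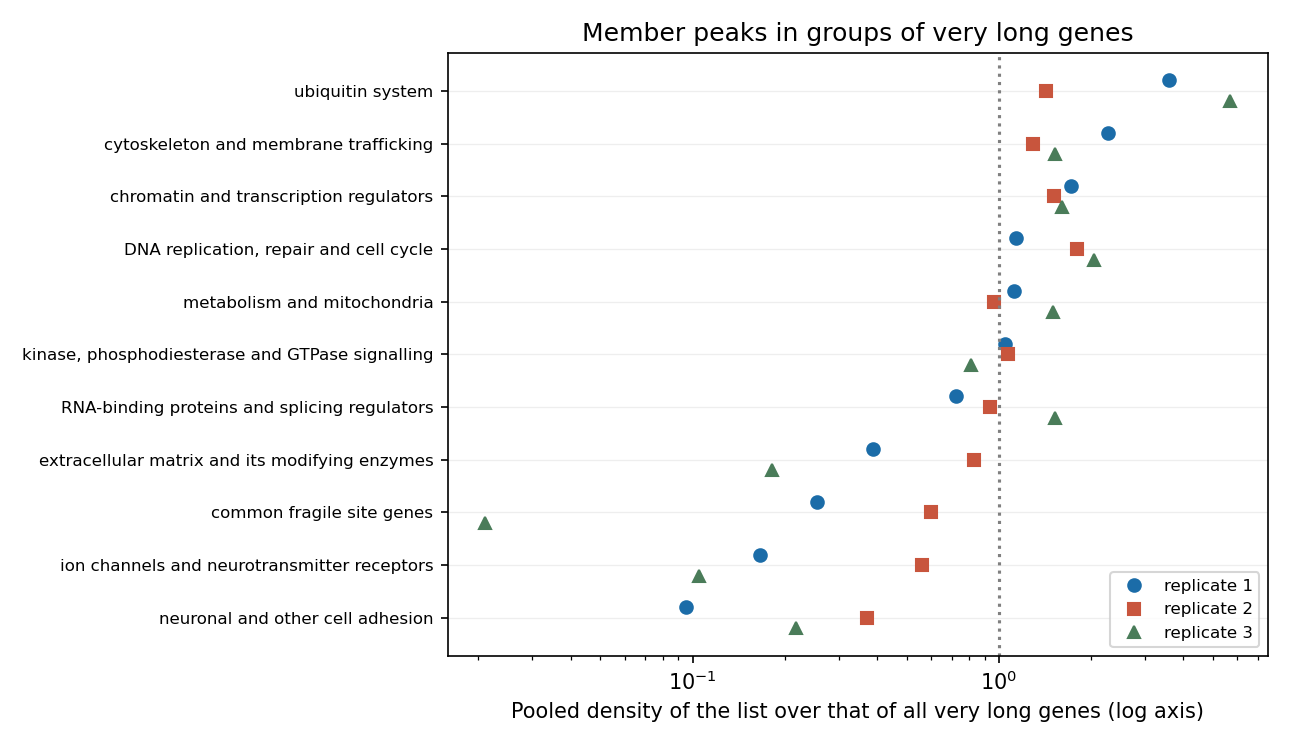
Pooled density of peaks in 11 groups of very long genes divided by the density of all very long genes (log axis), with 1 symbol per replicate and a dotted line at 1. The ubiquitin system, cytoskeleton and membrane trafficking, chromatin regulators and the replication and repair group lie above 1 in every replicate, and the adhesion, ion channel, fragile site and extracellular matrix groups lie below 1 in every replicate.

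Along the genes, peaks were densest toward the 3′ end. This could be followed in the 1159 genes of known strand. With the span divided into 5 equal bins from 5′ to 3′, replicate 1 had 0.00367, 0.00372, 0.00463, 0.00591 and 0.0121 peaks per kb. Replicate 2 had 0.0432, 0.0396, 0.0389, 0.0431 and 0.0643, and replicate 3 had 0.00111, 0.00105, 0.00118, 0.00146 and 0.00249. The bin at the 3′ end was the highest in all 3 lists, and the first 4 differed little in replicate 2. The sequence on the 5′ side of the gene's midpoint held 0.469, 0.797 and 0.597 times the density of that on the 3′ side, a geometric mean of 0.607 (log2 ratio -0.72 ± 0.38, SD, n = 3; below 1 in 3 of 3 replicates; exact sign-flip permutation test, two-sided, p = 0.25, the smallest possible).

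The difference between the 5′ and 3′ sides was smaller in longer genes. In genes of at least 500 kb the ratio was 0.940, 0.944 and 0.835. Taken gene by gene, the median ratio was 0.290 over 61 genes with at least 10 peaks in replicate 1 and 0.795 over 761 in replicate 2, but 1.13 over the 6 such genes of replicate 3, so the median over those 6 genes went the other way. With the wide peaks of replicate 3 its ratio was 0.885.

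**Figure D4:**
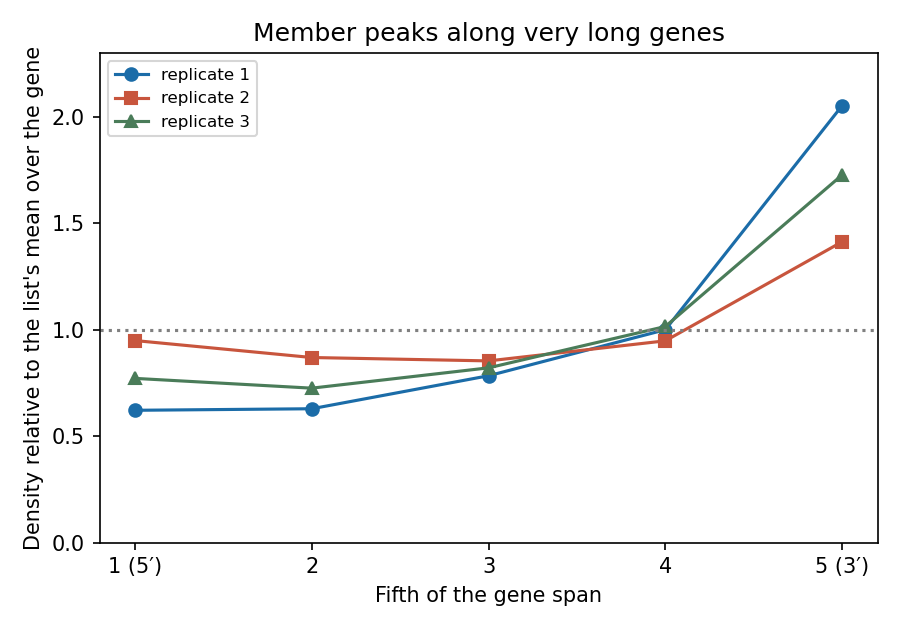
Density of peaks in 5 equal bins of the gene span, from 5′ to 3′, divided by the mean density of the same list over the whole gene, for very long genes of known strand. The bin at the 3′ end stands at 2.05, 1.41 and 1.73 in replicates 1, 2 and 3, and the bin at the 5′ end at 0.621, 0.949 and 0.771.

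Within 5 kb of either end the eligible sequence was denser than more than 100 kb away from that end. Between 2 and 5 kb from the 3′ end there were 0.0412, 0.204 and 0.00711 peaks per kb, from 116, 575 and 20 peaks, against 0.00348, 0.0379 and 0.000969 more than 100 kb away from it. At 50 to 100 kb it was 0.0106, 0.0562 and 0.00238, so the density was still above that beyond 100 kb. Longer genes, which were sparser at large, contribute more of the sequence beyond 100 kb. In these bins the distance from an end and the length of the gene therefore cannot be told apart. From 0.5 to 5 kb of the 5′ end the density was 0.00951, 0.0968 and 0.00317, from 45, 458 and 15 peaks. More than 100 kb away from the 5′ end it was 0.00623, 0.0441 and 0.00143. From 5 to 10 kb of the 5′ end it was 0.00379, 0.0513 and 0.00114, which in replicates 1 and 3 was below the density beyond 100 kb. How many of the peaks near either end were exonic was not determined.

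Peaks of at most 1000 bp recurred at the same place in another list for 39.0%, 5.04% and 44.4% of those of replicates 1, 2 and 3; with the wide peaks of replicate 3 counted, the shares were 58.3%, 66.5% and 65.0%. Of the peaks of replicate 1 in very long genes, 35.1% shared at least 1 bp with one of replicate 2, and 6.27% with one of replicate 3; in the interiors of shorter genes these shares were 34.5% and 14.3%. Of those of replicate 2, 4.49% overlapped replicate 1 and 0.846% replicate 3, against 8.98% and 4.78% in shorter genes. Of those of replicate 3, 26.5% overlapped replicate 1 and 27.7% replicate 2, against 26.5% and 33.8%. The overlap of replicate 1 with 2 and of replicate 3 with 1 was about the same in very long and shorter genes, and the other 4 overlaps were lower in very long genes; the differences were not tested. Among peaks of replicate 2 with at least 2 reads the share overlapping replicate 1 was 18.6%, against 21.5% in shorter genes.

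Peaks of all 3 lists shared 56 segments of at least 20 bp in 43 genes, with a median length of 48 bp. Their median reads were 8, 8 and 6.5, against 3, 1 and 6 over all peaks in very long genes, so the difference was small in replicate 3. None of the segments rested on a single read in replicate 2. At least 10 reads in every list were found at 8 of them. Of the 50 in genes of known strand, 18 (36.0%) lay in the 3′-most of the 5 bins, which held 38.4%, 26.5% and 32.3% of all the peaks of replicates 1, 2 and 3. FOCAD, which encodes a focal adhesion protein, had 4 segments, MTHFD1L and MYCBP2 had 3 each, and 6 other genes had 2, MKLN1, USP32 and the helicase gene DDX10 among them (these 3 named after their values were seen). Both segments of MKLN1 lay in the same peak of replicate 1 and in the same peak of replicate 2.

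By the sum of the within-list ranks of −log10 p, the first shared segment was chr9:20923717-20923738 in FOCAD, with 12, 12 and 9 reads and deposited folds of 6.64, 4.63 and 2.94, at 78.8% of the way along the gene. The next, chr1:29099146-29099193 in EPB41, a membrane skeleton gene, had 11, 7 and 9 reads and lay at 91.0% of its gene. SEPTIN9, a septin cytoskeleton gene, followed with 6, 4 and 5 reads at chr17:77490789-77490861, at 95.5%. These 3 lay toward the 3′ end, whereas the segment of SERGEF at chr11:18006615-18006718, with 10, 13 and 10 reads, lay at 2.82% of its gene. MED13L, a Mediator subunit gene, had 6, 13 and 6 reads at its segment and JAK1, the kinase gene of cytokine signalling, 9, 9 and 12. The others of the first 10 were a second segment in FOCAD (9, 10 and 4 reads) and those of SPECC1 (5, 5 and 5), TTC7B (9, 5 and 4) and the glycosyltransferase gene MGAT5 (5, 4 and 5).

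Some shared segments had more reads. That of FAF1 at chr1:50475580-50475624 had 24, 28 and 34 reads with folds of 1.92, 1.99 and 2.41. In SRGAP2B, a partial duplicate of SRGAP2 whose reads are uncertain for that reason, it was 24, 29 and 24 reads with folds of 1.92, 2.06 and 2.36. MKLN1 had 20, 16 and 19 reads at chr7:131443635-131443675 with folds of 3.25, 1.86 and 4.87. These 3 were chosen after their values were seen. In FAF1 and SRGAP2B the fold in replicate 1 was below the list's median of 2.73, although the reads were far above its median of 3.

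The peaks with the lowest p-value in each list, also chosen after their values were seen, were not shared by all lists among peaks of at most 1000 bp. The wider peaks of replicate 3 were not counted here. In replicate 1 it was chr20:13569503-13569566 in TASP1, a protease gene, with 18 reads and a fold of 10.9; replicate 2 had 9 reads there and replicate 3 no peak of at most 1000 bp. In replicate 2 it was chr17:60324010-60324098 in USP32, a deubiquitinase gene, with 9 reads and a fold of 9.68. There replicate 1 had 8 reads and replicate 3 no peak of at most 1000 bp. The peak of replicate 2 that came next by p-value was in DGKI, a diacylglycerol kinase gene. DGKI had 32 reads at chr7:137514057-137514173 in both replicates 2 and 3 and no overlapping peak in replicate 1. In replicate 3 the peak with the lowest p-value was chrX:117914302-117914344 in KLHL13, a ubiquitin ligase adaptor gene, with 23 reads and a fold of 6.58. Neither of the other lists had a peak there. Of these 4 peaks, none lay in a segment shared by all 3 lists.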

How the data were processed

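Peak lists of the 3 SNRPD2 overexpression samples were analysed. The submitters' processing notes name GRCh38, the trimmer cutadapt 4.2, the aligner STAR 2.7.10b and the caller MACS2 2.2.9.1; no source used here gives options, background library or strand. The deposited fold is a ratio of scaled pileup plus 1 over background plus 1. The deposited score is the whole part of 10 times the deposited −log10 p-value, which is unadjusted; the deposited −log10 q-value is mostly 0. Listed peaks may be part of those called, library totals are unknown, and reads at a summit, recovered from fold and p within 0.002 on the −log10 scale (1 peak of replicate 3 unsolved), give each peak's precision, with duplicates not told apart.

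Genes came from a RefSeq table of GRCh38 (58957 gene spans, 19862 protein-coding) that gives no strand; strand came from RefSeq start windows. For 240 genes of unknown strand 2000 bp were left out at both ends. Density is peaks per kb of interior lying in exactly 1 span. Python 3.11.15, pandas 2.3.3 and scipy 1.17.1 were used; steps were tested on simulated data. Members, gene lists and tests were chosen with earlier results of these data known. Named genes were the 12 with the highest mean density rank among genes with a peak in each list and at least 100 kb eligible. The 10 longest genes and genes of the first 10 shared segments were named too. From each functional group came the 2 genes highest by the same mean density rank. Alternatives changed peak width, gene length, gene overlap, ends, q, reads, list length, averaging, overlap and replicates.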

Additional observations from a re-analysis of the deposited data

How the results depend on the processing

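No paired analysis was possible because lists of the controls were not used here and no comparison between groups was fitted. The number of peaks, 27396, became 54993 with genes of at least 100 kb, 7088 with at least 500 kb, 732 with −log10 q of at least 1.3, 8105 with at least 2 reads, 343 with at least 10 reads and 4468 with lists of equal length, and 3746 to 26678 when 1 replicate was left out. Genes with a peak in every list, 262, became 839 with genes of at least 100 kb, 28 with at least 500 kb, 4 with −log10 q of at least 1.3, 21 with at least 10 reads and 743 with no limit on peak width, an alternative chosen after seeing the data, and 262 to 743 when 1 replicate was left out. The mean share of peaks overlapping another list, 29.5%, became 63.3% with no limit on peak width, 11.7% with −log10 q of at least 1.3, 14.6% with reciprocal overlap of 50%, 17.3% with lists of equal length and 14.3% to 19.8% when 1 replicate was left out.

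The ratio of density in very long over shorter genes stayed below 1 under its 14 alternatives, from 0.0331 with at least 10 reads to 0.322 with no limit on peak width, and was 0.126 to 0.271 when 1 replicate was left out. The 5′ over 3′ ratio stayed below 1 under its 15 alternatives, from 0.428 with −log10 q of at least 1.3 to 0.905 with genes of at least 500 kb, and was 0.529 to 0.690 when 1 replicate was left out; no p could fall below 0.25, so these p-values say nothing about stability. Most peaks rest on 1 to 7 reads, which limits single genes most.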
